A study of Mus musculus with 16 samples.

Results

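Chaperones are the proteins that help other proteins reach and keep their fold, and 40 mouse genes for them were examined here in stimulated T cells with and without the kinase Lck. They were chosen by name from the 22328 genes named on the array: the 8 subunit genes measured here of CCT, the ring-shaped chaperonin of the cytosol; 11 other cytosolic heat shock and co-chaperone genes; 4 mitochondrial chaperone genes; and 17 genes of the endoplasmic reticulum (ER), the compartment where secreted and membrane proteins fold. The brightest probe stood for each gene.

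CCT encloses newly made proteins such as actin and tubulin and folds them with ATP, while the Hsp70 and Hsp90 families bind exposed stretches of many clients, helped by J-domain proteins and other co-chaperones. Mitochondria hold their own Hsp70 and a chaperonin related to the bacterial one, and the ER holds its own Hsp70 and Hsp90, lectin chaperones for glycoproteins, and disulphide isomerases. Unfolded proteins in the ER set off the unfolded protein response, which raises transcription of many ER chaperone genes, and activated T cells enlarge their protein-making apparatus before they divide.

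Polysome profiling measures which mRNAs carry many ribosomes: a lysate is spun on a sucrose gradient, and RNA from the heavy fractions, polysomal, is set against RNA from the light fractions, sub-polysomal. The study compared Lck-/- with WT mouse T cells, which asks how the loss of Lck, the kinase that starts signalling from the T cell receptor, bears on translation. RNA of both fractions was hybridised together, one in each dye, to 16 two-colour Agilent arrays, which held 8 extracts, each measured again with the dyes swapped. The series title marks Lck-/- also as OFF, which the labels do not explain.

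The Lck-/- group had 4 extracts of OT-1het, Rag-/-, Lck-/- lymph node T cells, and the WT group had 4 extracts of OT-1het, Rag-/- lymph node T cells labelled OT-1 WT. OT-1 is a transgenic T cell receptor that recognises the ovalbumin peptide SIINFEKL, and Rag-/- mice make no T or B cells with receptors of their own. Both genotypes were given 100 nM SIINFEKL for 24 h and 100 µg/ml cycloheximide, which holds ribosomes on mRNA, for the final 10 min. Fractions 1 to 5 of a 10 to 50% gradient were pooled as sub-polysomal RNA, fractions 6 to 10 as polysomal RNA, and 1.5 µl of each pool was labelled. The age of the mice and the number behind an extract were not given in the sources used here.

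Between 14619 and 50776 probes were well above background in the polysomal channel (median 20212.5) and 12531 to 30976 in the sub-polysomal channel, and no spot was saturated. The highest count belonged to Lck-/- replicate 1 with polysomal RNA in Cy5. Lck itself was lower in Lck-/- cells, by 0.91 on the log2 scale in polysomal RNA (SE 0.19, adjusted p = 0.0106) and by 0.79 in sub-polysomal RNA (SE 0.12, adjusted p = 0.00277), with no overlap of extracts; it was still well above background, and whether its probe lies in the deleted part was not given. For WT replicates 1 and 2 the arrays with exchanged dyes did not match their labels: within-genotype deviations correlated at -0.83 and -0.81 with their own partner but at 0.87 and 0.94 with the partner of the other, against 0.46 to 0.84 for the other 6 extracts with their own. Counts of calls are therefore given as labelled, with these arrays exchanged (crossed dye swaps), and without both WT extracts. Values per extract, SDs and overlaps between genotypes are given as labelled only. If the labels are exchanged, each labelled value of WT replicates 1 and 2 mixes arrays of both extracts. The WT spread, SDs and SEs as labelled may then be too small, and genotypes may seem not to overlap. Over all genes 319 ratio differences were called as labelled and 41 with crossed dye swaps. All 9 T cell markers were detected; Cd5 was called lower in Lck-/- cells in polysomal (-0.60, adjusted p = 0.0336) and sub-polysomal RNA (-0.65, adjusted p = 0.0178), and Thy1 higher in sub-polysomal RNA (0.56, adjusted p = 0.0176). Of 7 B cell markers Cd79b alone was, with summed sub-polysomal log2 levels of 10.02 to 10.20 in Lck-/- and 9.88 to 10.08 in WT extracts.

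The first question was how strongly each folding gene's mRNA was loaded with ribosomes in each genotype. The measure was the log2 ratio of polysomal over sub-polysomal signal, where 0 is about the typical mRNA of the array, because the normalization sets the centre there. Of the 40 genes, 39 passed the filter for this ratio, which asks that each channel stand well above background on 6 or more of the 8 arrays per genotype. Hyou1, an ER chaperone that exchanges nucleotide on Hspa5, did not pass, with sub-polysomal signal above background on 7 of 8 Lck-/- and 4 of 8 WT arrays.

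Most folding mRNAs lay on the polysomal side of the array's centre in both genotypes. In Lck-/- cells 31 of the 39 genes had a ratio above 0 at adjusted p below 0.05 (background: 26.9% of 8266 genes tested) and 3 a ratio below 0 (background: 29.2%). In WT cells 32 of 39 were above 0 (background: 33.5%) and 3 below (background: 28.8%). The median ratio of the 39 was 0.52 in Lck-/- and 0.78 in WT cells, against -0.03 in Lck-/- and 0.04 in WT cells over all genes tested. With crossed dye swaps 26 genes in Lck-/- and 30 in WT cells were called on either side of 0, against 2963 in Lck-/- and 3822 in WT cells of all 8266 genes. Without WT replicates 1 and 2 there were 30 in Lck-/- and 29 in WT cells, against 4118 in Lck-/- and 3638 in WT cells of all genes. As labelled, 4638 genes in Lck-/- and 5146 in WT cells were called. The 39 were also brighter than most, with 34 above the median intensity of the genes tested.

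The classes differed in ratio in the same order in both genotypes. CCT had the highest median, 1.21 in Lck-/- (range 0.38 to 1.66) and 1.17 in WT cells (0.33 to 1.73), and all 8 subunits were called above 0 in both. The 4 mitochondrial genes had medians of 0.74 in Lck-/- and 0.93 in WT cells, again with all 4 above 0. The 11 other cytosolic genes had medians of 0.52 in Lck-/- and 0.83 in WT cells, with 9 above 0 in each genotype. ER genes had the lowest median and the widest range, 0.30 in Lck-/- (-0.44 to 1.32) and 0.53 in WT cells (-0.58 to 1.15), with 10 above and 3 below 0 in Lck-/- cells and 11 above and 3 below 0 in WT cells. These class medians are a description with no test. The counts above are as labelled. With crossed dye swaps 7 CCT subunits in Lck-/- and 6 in WT cells were above 0, and 3 mitochondrial and 8 other cytosolic genes in each. ER genes numbered 7 above and 1 below 0 in Lck-/- and 10 above and 3 below in WT cells. Without WT replicates 1 and 2, CCT had 8 above 0 in Lck-/- and 6 in WT cells, and mitochondrial genes 3 in each. ER genes below 0 then numbered 2 in Lck-/- and 3 in WT cells.

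**Figure D1:**
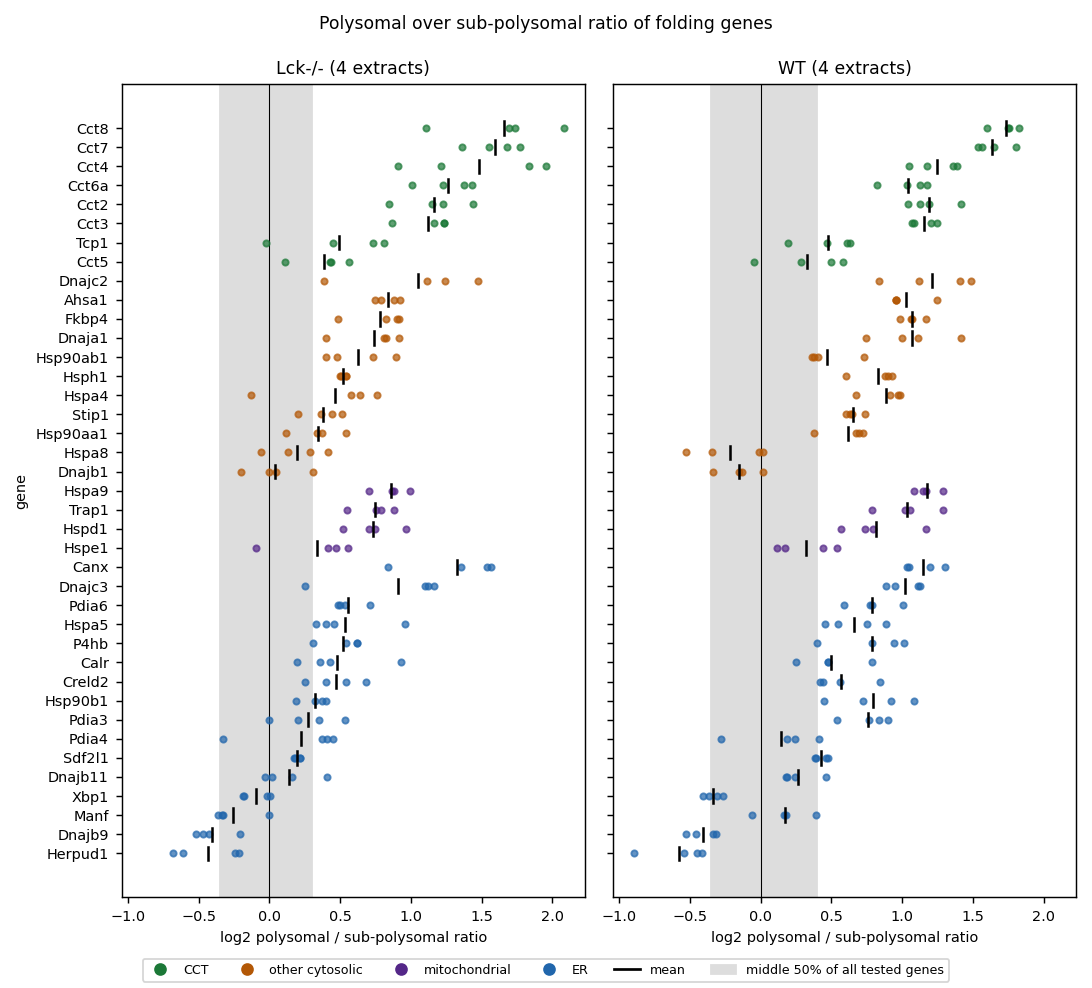
The log2 ratio of polysomal over sub-polysomal signal of 39 folding genes (rows, ordered within class by the Lck-/- mean) in the 4 Lck-/- extracts (left) and the 4 WT extracts (right), with points for extracts, black ticks for means and a grey band for the middle 50% of all tested genes. Every point of the CCT subunits other than Tcp1 and Cct5 lies right of the band in both genotypes, while the means of Herpud1 and Dnajb9 lie left of it, with some of their points inside.

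Among CCT subunits the ratio was uneven. Cct8, the theta subunit, had log2 ratios of 1.10, 2.08, 1.74 and 1.70 in Lck-/- replicates 1 to 4 and of 1.60, 1.74, 1.75 and 1.83 in WT replicates 1 to 4. Its mean was 1.66 ± 0.41 in Lck-/- and 1.73 ± 0.10 in WT cells (SD, n = 4 each), and 99.8% of tested genes had a lower mean ratio in each genotype. The Lck-/- replicates thus lay on both sides of the WT range.

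Cct7 (eta) had 1.36, 1.77, 1.68 and 1.55 in Lck-/- and 1.56, 1.65, 1.54 and 1.80 in WT extracts. Cct4 (delta) had 0.91, 1.84, 1.95 and 1.21 in Lck-/- and 1.18, 1.36, 1.05 and 1.39 in WT extracts. For both genes the genotypes overlapped. Cct2, Cct3 and Cct6a had mean ratios of 1.12 to 1.26 in Lck-/- and 1.04 to 1.19 in WT cells. Tcp1 and Cct5, the alpha and epsilon subunits, were lower, with means of 0.49 and 0.38 in Lck-/- cells and 0.47 and 0.33 in WT cells, though all 8 proteins stand in the same ring.

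Of the other cytosolic genes, Dnajc2, a ribosome-bound J-domain protein that works on nascent chains, had ratios of 0.39, 1.47, 1.11 and 1.24 in Lck-/- and 1.41, 1.12, 0.83 and 1.49 in WT extracts. Ahsa1, which stimulates the Hsp90 ATPase, had 0.79, 0.92, 0.88 and 0.75 in Lck-/- and 0.95, 0.95, 1.24 and 0.96 in WT extracts. Every Ahsa1 value in Lck-/- was below every value in WT. Fkbp4, an Hsp90 co-chaperone with prolyl isomerase activity, had 0.49, 0.92, 0.83 and 0.90 in Lck-/- and 0.99, 1.06, 1.17 and 1.07 in WT extracts. Dnaja1, a J-domain partner of Hsp70, had 0.40, 0.82, 0.81 and 0.92 in Lck-/- and 1.00, 1.11, 1.42 and 0.74 in WT extracts, so Fkbp4 did not overlap between genotypes and Dnaja1 did.

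Hspa8, the constitutive Hsp70 of the cytosol, and Dnajb1, its stress-linked J-domain partner, were the cytosolic genes not called on either side of 0. Hspa8 averaged 0.19 ± 0.20 in Lck-/- and -0.22 ± 0.27 in WT cells. Dnajb1 averaged 0.04 ± 0.21 in Lck-/- and -0.15 ± 0.15 in WT cells (SD, n = 4 each).

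In mitochondria, Hspa9, the Hsp70 of the matrix, had ratios of 0.71, 0.99, 0.88 and 0.87 in Lck-/- and 1.17, 1.29, 1.15 and 1.09 in WT extracts. Trap1, the mitochondrial Hsp90, had 0.55, 0.79, 0.76 and 0.88 in Lck-/- and 1.05, 0.78, 1.29 and 1.02 in WT extracts. Hspd1, the chaperonin Hsp60, had 0.52, 0.97, 0.70 and 0.75 in Lck-/- and 0.57, 0.79, 0.74 and 1.17 in WT extracts. Hspa9 alone of the 3 did not overlap between genotypes. Hspe1, the co-chaperonin that caps Hspd1, had the lowest ratio of the class, 0.34 ± 0.29 in Lck-/- and 0.32 ± 0.21 in WT cells.

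In the ER, Canx, the membrane-bound lectin chaperone calnexin, had the highest ratio, with 0.84, 1.54, 1.36 and 1.57 in Lck-/- and 1.03, 1.31, 1.05 and 1.19 in WT extracts. Dnajc3, an ER J-domain protein that also restrains the kinase PERK, had 0.25, 1.10, 1.12 and 1.17 in Lck-/- and 0.95, 1.11, 1.12 and 0.89 in WT extracts, with Lck-/- replicate 1 far below the rest. Pdia6, a disulphide isomerase, had 0.54, 0.71, 0.49 and 0.50 in Lck-/- and 0.59, 0.79, 1.00 and 0.77 in WT extracts. Replicate 1 gave the lowest of the 4 Lck-/- ratios for 23 of the 39 genes. The same count over all genes was not made. Without that extract the median Lck-/- ratio moved from -0.03 to 0.01 over all genes and from 0.52 to 0.59 over the 39.

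The 3 genes below 0 in each genotype were all of the ER. Herpud1, which acts in ER-associated degradation, had mean ratios of -0.44 ± 0.24 in Lck-/- and -0.58 ± 0.22 in WT cells. Dnajb9, an ER J-domain protein that holds the sensor IRE1 inactive, had -0.41 ± 0.14 in Lck-/- and -0.41 ± 0.10 in WT cells. The third gene differed by genotype: Manf, a secreted ER factor, was called below 0 in Lck-/- cells (-0.26 ± 0.17) and not in WT cells (0.17 ± 0.18), while Xbp1, the transcription factor spliced by IRE1, was called in WT (-0.34 ± 0.06) and not in Lck-/- cells (-0.09 ± 0.10). Neither difference between genotypes was called (Manf -0.43, SE 0.14, adjusted p = 0.12; Xbp1 0.24, SE 0.11, adjusted p = 0.24; limma).

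The second question was whether the ratio differed between genotypes. None of the 39 genes was called, against 3.86% of all genes tested (2.81% higher and 1.05% lower in Lck-/-). An unadjusted p below 0.05 (limma) was found for 10 of the 39 and for 1721 of all 8266 genes. With crossed dye swaps it was found for 2 of the 39 and 750 of all genes. Without WT replicates 1 and 2 it was found for 1 of the 39 and 1159 of all genes. None of the 39 was called in either setting. The median difference, Lck-/- minus WT, was -0.10 over the 39 genes and -0.04 over all genes. It was negative for 26 of the 39 and for 4611 of all 8266 genes. By class the median was -0.00 for CCT, -0.27 for other cytosolic, -0.19 for mitochondrial and -0.12 for ER genes. In 9 of 39 genes the extracts of the genotypes did not overlap, against a background of 14.5%.

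Each class's gene with the smallest p shows the sizes involved. Pdia3, the isomerase that works with calnexin and calreticulin, had ratios of 0.20, 0.00, 0.35 and 0.54 in Lck-/- and 0.77, 0.90, 0.83 and 0.54 in WT extracts. The highest Lck-/- value lay just below the lowest WT value, and the difference was -0.49 (SE 0.14, adjusted p = 0.095). Hspa9 differed by -0.31 (SE 0.11, adjusted p = 0.17). Hsph1, an Hsp110 that recharges Hsp70, had 0.50, 0.50, 0.54 and 0.54 in Lck-/- and 0.88, 0.90, 0.93 and 0.61 in WT extracts, a difference of -0.31 (SE 0.12, adjusted p = 0.18). Cct6a, the zeta subunit, had 1.43, 1.38, 1.23 and 1.01 in Lck-/- and 1.04, 1.12, 1.17 and 0.82 in WT extracts, with overlap and a difference of 0.22 (SE 0.14, adjusted p = 0.38).

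This outcome depended on the normalization. Loess centres each array at every intensity. Without it, with each extract centred on its median, 8 of 39 genes were lower in Lck-/- cells (980 of 8266 genes were called in all): Ahsa1, Hsp90aa1, Hsp90b1, Hspa9, Hsph1, Manf, Pdia3 and Pdia6. In the authors' deposited table, columns centred, 7 were lower (717 of 8266 genes were called in all). Common to both settings were 6 genes: Hsp90aa1, Hsp90b1, Hspa9, Hsph1, Pdia3 and Pdia6, with differences of -0.77 to -0.51 in the first setting. Before any centring the median ratio of the 39 genes was 0.46, 0.82, 1.27 and 1.23 in Lck-/- replicates 1 to 4 and 2.18, 1.96, 2.69 and 1.81 in WT replicates 1 to 4, and that of all tested genes ran from 0.21 to 0.78 in Lck-/- and 1.04 to 1.73 in WT extracts. With no normalization 37 of 39 were lower, relative to a shift of -0.78 in the median of all genes, of which 5980 of 8266 were called. Because a fixed volume of RNA was labelled, a change of all mRNAs and a difference in RNA amount cannot be told apart here.

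The levels in each fraction were compared next, as log2 intensity scaled between arrays, and all 40 genes passed. In bulk RNA, fewer cells of a type and less RNA per cell cannot be told apart. In polysomal RNA 3 of the 40 genes were higher in Lck-/- cells (background: 5.96%), Hspa8, Hspa5 and Dnajb11, and 2 were lower (background: 9.25%), Tcp1 and P4hb. The median difference was 0.18 over the 40 genes and 0.00 over all genes, and 7 of 40 did not overlap (background: 23%). In sub-polysomal RNA 9 of the 40 were higher (background: 9.49%) and Tcp1 alone was lower (background: 10.8%). There the median difference was 0.23 over the 40 genes and 0.05 over all genes, and 12 of 40 did not overlap (background: 26.1%).

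These calls differed in how they held. With crossed dye swaps Tcp1 alone stayed called in polysomal RNA, and Creld2, Hsp90b1, Hspa5, Hspa9 and Hsph1 in sub-polysomal RNA. Of all genes 696 polysomal and 1110 sub-polysomal were then called, against 1566 and 1966 as labelled. Without WT replicates 1 and 2, again Tcp1 alone stayed called in polysomal RNA, and Creld2, Dnajb11, Hsp90b1, Hspa5, Hspd1 and Tcp1 in sub-polysomal RNA, with 238 polysomal and 1105 sub-polysomal calls over all genes. Slide 1 alone gave 0 polysomal and 12 sub-polysomal calls, against 149 and 2450 over all genes. Slide 2 alone gave 3 polysomal calls (Dnajb11, P4hb and Tcp1) and 0 sub-polysomal ones, against 2100 and 276 over all genes. A fit with slide and dye as terms gave 6 polysomal and 8 sub-polysomal calls, against 1855 and 2194 over all genes.

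**Figure D2:**
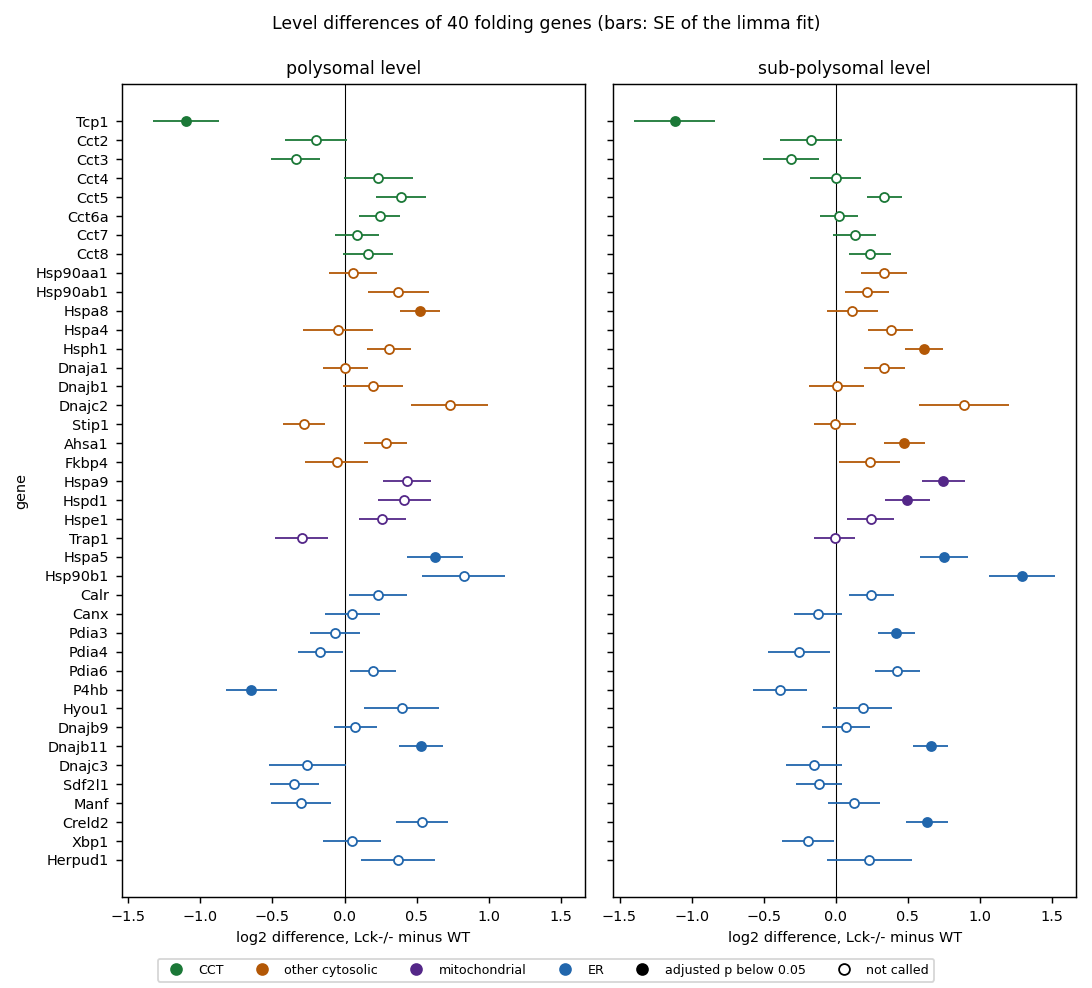
Difference in level, Lck-/- minus WT, of the 40 genes (rows, by class) in polysomal RNA (left) and sub-polysomal RNA (right); points are estimates, bars their SE, and filled points have adjusted p below 0.05. Tcp1 stands lowest in both fractions, at -1.10 and -1.12, and Hsp90b1 stands highest in sub-polysomal RNA, at 1.30.

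Tcp1, the CCT subunit alpha, was the gene with the lowest difference in both fractions. Its polysomal levels were 11.36, 11.94, 11.62 and 11.15 in Lck-/- and 12.08, 12.53, 12.90 and 12.97 in WT extracts. Its sub-polysomal levels were 11.38, 11.50, 10.89 and 10.34 in Lck-/- and 11.61, 11.92, 12.71 and 12.34 in WT extracts. The genotypes did not overlap in either fraction.

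Tcp1 fell by 1.10 on the log2 scale in polysomal RNA (SE 0.23, adjusted p = 0.011) and by 1.12 in sub-polysomal RNA (SE 0.28, adjusted p = 0.020), and its ratio differed by 0.02 (SE 0.19). The polysomal call held without any single extract and with crossed dye swaps (adjusted p = 0.021). Crossing the dye swaps ended the sub-polysomal call (adjusted p = 0.14), as did the replicate block, a fit with slide and dye terms, and leaving out Lck-/- replicate 3 or WT replicate 3, where adjusted p was at most 0.059.

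The other 7 subunits did not follow Tcp1: none was called, and their differences ran from -0.34 to 0.39 in polysomal and from -0.31 to 0.34 in sub-polysomal RNA. Cct5 was nearest to a call in the sub-polysomal fraction (0.34, SE 0.12, adjusted p = 0.069). Tcp1 is represented by a single 60-base probe, at chr17:13116096-13116155 of build mm9, so its fall rests on this sequence, printed here 5′ to 3′ with no part marked:
Tcp1 probe: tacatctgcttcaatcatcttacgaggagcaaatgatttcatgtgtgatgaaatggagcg

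**Figure D3:**
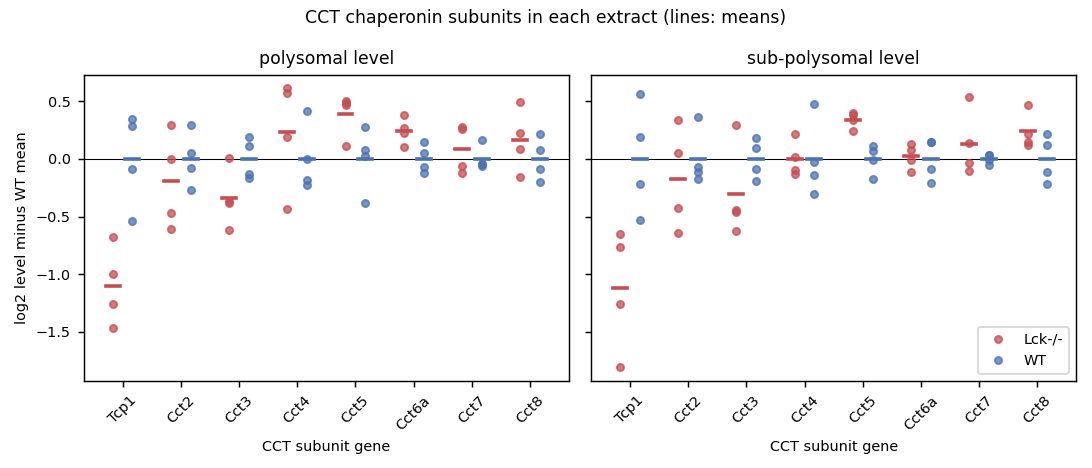
Levels of the 8 CCT subunit genes in each extract as log2 difference from the WT mean of that gene, in polysomal RNA (left) and sub-polysomal RNA (right), Lck-/- in red beside WT in blue, with lines at the means. All Lck-/- points of Tcp1 lie below all WT points in both fractions, and the genotype means of the other subunits differ by at most 0.39.

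Among the other cytosolic genes, Hspa8 had polysomal levels of 16.61, 16.65, 16.58 and 16.44 in Lck-/- and 16.11, 16.18, 15.94 and 15.94 in WT extracts. All Lck-/- values lay above all WT values, a rise of 0.52 (SE 0.14, adjusted p = 0.029), while its sub-polysomal level differed by 0.12 (SE 0.18). The polysomal call was lost without Lck-/- replicate 3 or 4 or any one WT extract (adjusted p up to 0.083), with crossed dye swaps (adjusted p = 0.12) and without loess.

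Sub-polysomal RNA held 2 cytosolic genes that rose. Hsph1 had 12.92, 13.01, 12.60 and 12.64 in Lck-/- and 12.10, 12.18, 12.20 and 12.23 in WT extracts. With no overlap, it rose by 0.61 (SE 0.13, adjusted p = 0.011), or 1.53-fold, and its other probe, dimmer, differed by 1.03. In polysomal RNA Hsph1 differed by 0.31 and was not called, while the dimmer probe differed by 0.82. With probes of a gene averaged, Hsph1 was called higher in polysomal RNA as well. Ahsa1 had 14.06, 13.89, 13.58 and 13.74 in Lck-/- and 13.50, 13.35, 13.14 and 13.37 in WT extracts. It rose by 0.48 (SE 0.14, adjusted p = 0.039), and without any one of 6 extracts (all but Lck-/- replicate 3 and WT replicate 1) that call was lost, with adjusted p up to 0.094. Its polysomal levels were 14.46 to 14.85 in Lck-/- and 14.31 to 14.45 in WT extracts, and the difference was not called.

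The remaining cytosolic genes were not called in either fraction. Dnajc2 had the highest difference among them (0.73, SE 0.27, adjusted p = 0.087 in polysomal and 0.89, SE 0.31, adjusted p = 0.065 in sub-polysomal RNA). The Hsp90 genes Hsp90aa1 and Hsp90ab1 differed by 0.06 and 0.37 in polysomal and by 0.33 and 0.22 in sub-polysomal RNA. Stip1, which bridges Hsp70 and Hsp90, differed by -0.28 in polysomal and -0.01 in sub-polysomal RNA. Hspa4 (an Hsp110), Dnaja1, Dnajb1 and Fkbp4 differed by -0.05 to 0.20 in polysomal and 0.01 to 0.38 in sub-polysomal RNA.

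Hspa8 is covered by 3 probes, all well above background on every array, and they disagreed. The brightest, nearest the 3′ end of the gene, gave the values above. A probe farther upstream, A_52_P12877, had ratios of 1.09, 1.69, 1.57 and 1.54 in Lck-/- and 0.05, 0.17, -0.09 and 0.08 in WT extracts. All its Lck-/- ratios lay above all its WT ratios, with a mean difference of 1.42, while the brightest probe differed by 0.41 and the third by 0.50. On that probe the sub-polysomal level was lower in Lck-/- (mean difference -0.59) and the polysomal level higher (0.83). With probes of a gene averaged, Hspa8 became the only folding gene called in the ratio, at 0.78 (SE 0.15, adjusted p = 0.016). The probes were examined after their values were seen, and binding of other Hsp70 sequences to them was not tested. Both dimmer probes are printed because the disagreement rests on them; on mm9 the first is at chr9:40611142-40611201 and the second spans chr9:40612755-40613050, with no part marked:
A_52_P12877: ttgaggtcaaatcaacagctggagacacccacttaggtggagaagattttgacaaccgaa
A_55_P2069721: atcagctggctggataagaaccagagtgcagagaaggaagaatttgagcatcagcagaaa

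**Figure D4:**
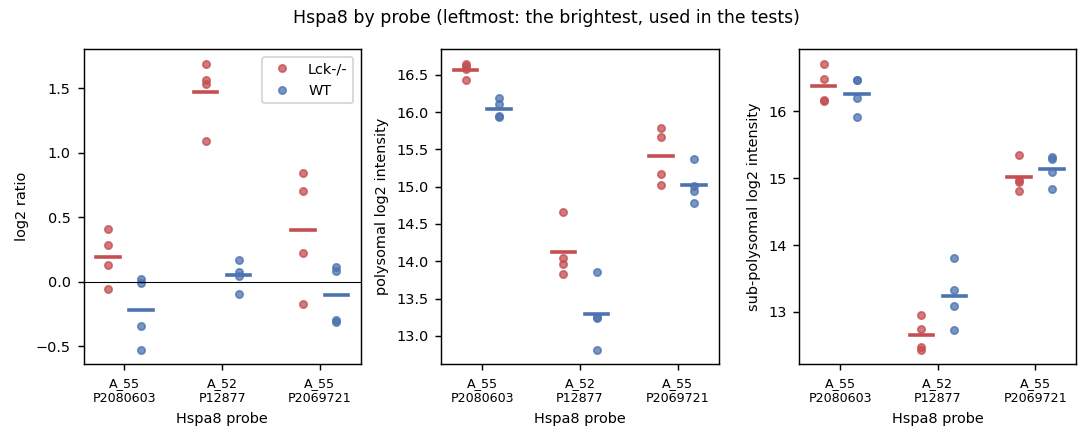
The 3 Hspa8 probes (the brightest leftmost) in each extract, as log2 ratio (left), polysomal log2 intensity (middle) and sub-polysomal log2 intensity (right), Lck-/- in red beside WT in blue, lines at the means. The ratios of A_52_P12877 lie at 1.09 to 1.69 in Lck-/- and -0.09 to 0.17 in WT extracts, while the ratios of both other probes overlap between genotypes.

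In mitochondria, Hspa9 had sub-polysomal levels of 13.82, 13.87, 13.48 and 14.04 in Lck-/- and 13.00, 13.03, 12.93 and 13.26 in WT extracts. Every Lck-/- value was higher, a rise of 0.75 (SE 0.15, adjusted p = 0.0073), or 1.68-fold. Hspd1 had sub-polysomal levels of 15.70, 15.58, 15.38 and 15.50 in Lck-/- and 15.24, 15.28, 14.71 and 14.94 in WT extracts. It rose by 0.50 (SE 0.15, adjusted p = 0.044) with no overlap, and the call was lost without any one Lck-/- extract or without WT replicate 3 or 4 (adjusted p up to 0.10), and with crossed dye swaps (adjusted p = 0.17).

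In polysomal RNA no mitochondrial gene was called. Hspa9 came nearest, with 14.53, 14.86, 14.36 and 14.91 in Lck-/- and 14.17, 14.32, 14.08 and 14.35 in WT extracts, a difference of 0.43 (SE 0.17, adjusted p = 0.099). Hspd1 and Hspe1 differed by 0.42 and 0.26 and Trap1 by -0.30 in polysomal RNA. Hspe1 differed by 0.24 and Trap1 by -0.01 in sub-polysomal RNA. The dimmer Hspe1 probes, also well above background on all 16 arrays, disagreed. A_55_P2089358 differed by 0.56 in both fractions, and A_55_P1953063 by -0.03 in polysomal and 0.07 in sub-polysomal RNA. Hspd1 and Hspe1 form one folding chamber, and their genes lie head to head on chromosome 1.

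The 215 bases between the starts of Hspd1 and Hspe1, chr1:55087933-55088147 of GRCm38.p6, are shown from RefSeq on the strand of Hspe1. Capitals mark 2 matches, which overlap each other, to letters of the heat shock element bound by heat shock factors: GAA, any 2 bases, TTC, any 2 bases and GAA, or the same with GAA and TTC exchanged. Hsph1 held the only other match among the 32 of 40 members with a promoter in the table (250 bases before to 50 after the start), at chr5:149636288-149636300 just after its start. Either form, on both strands, occurs in 0.662% of 27025 genes with a promoter in the table. The members were chosen by name, heat shock genes among them, so matches in them describe the list and are no result about these cells. The part of this element in the level differences was not tested, and Hspe1 was not called in either fraction.
Hspd1 to Hspe1: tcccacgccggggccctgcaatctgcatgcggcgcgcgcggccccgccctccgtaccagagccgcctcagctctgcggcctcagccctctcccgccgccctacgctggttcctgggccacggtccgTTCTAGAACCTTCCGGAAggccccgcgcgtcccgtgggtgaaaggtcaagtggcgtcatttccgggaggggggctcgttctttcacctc
Hsph1 match: TTCtgGAAagTTC

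The ER genes held 5 of the 9 sub-polysomal rises. In sub-polysomal RNA 5 of 17 rose, Hsp90b1, Hspa5, Dnajb11, Creld2 and Pdia3, and none was called lower (background: 9.49% higher and 10.8% lower). In polysomal RNA 2 of 17 rose, Hspa5 and Dnajb11, and 1 fell, P4hb (background: 5.96% higher and 9.25% lower). The medians of the 17 were 0.19 in sub-polysomal and 0.07 in polysomal RNA. Hsp90b1, the Hsp90 of the ER (Grp94), had sub-polysomal levels of 14.12, 13.92, 14.18 and 14.48 in Lck-/- and 12.28, 13.49, 12.91 and 12.85 in WT extracts.

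Hsp90b1 rose by 1.30 (SE 0.23, adjusted p = 0.0046), or 2.46-fold, without overlap, and remained called in 22 of 23 other settings; the exception was slide 2 alone. In polysomal RNA it had 14.45, 14.11, 14.55 and 14.88 in Lck-/- and 13.00, 14.41, 13.99 and 13.29 in WT extracts, where WT replicate 2 reached into the Lck-/- range (0.83, SE 0.29, adjusted p = 0.071). Its ratio was 0.32 ± 0.09 in Lck-/- and 0.79 ± 0.27 in WT cells, and the difference of -0.47 was not called (SE 0.15, adjusted p = 0.11).

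Hspa5, the ER Hsp70 known as BiP, had sub-polysomal levels of 14.47, 14.74, 14.93 and 15.11 in Lck-/- and 14.14, 14.30, 13.87 and 13.93 in WT extracts. It rose by 0.75 there with no overlap (SE 0.16, adjusted p = 0.011), or 1.68-fold. In polysomal RNA it had 14.80, 15.70, 15.39 and 15.51 in Lck-/- and 14.59, 14.84, 14.62 and 14.82 in WT extracts, with Lck-/- replicate 1 inside the WT range, and rose by 0.63 (SE 0.20, adjusted p = 0.0498). That polysomal call was lost without any one extract other than Lck-/- replicate 1 (adjusted p up to 0.13) and with crossed dye swaps (adjusted p = 0.083).

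Dnajb11, the J-domain partner of Hspa5 for unfolded clients, had sub-polysomal levels of 12.55, 12.59, 12.58 and 12.70 in Lck-/- and 12.07, 12.03, 11.88 and 11.81 in WT extracts. It rose by 0.66 (SE 0.12, adjusted p = 0.0050) in sub-polysomal RNA; with crossed dye swaps adjusted p was 0.0501. Its polysomal levels were 12.95, 12.75, 12.55 and 12.71 in Lck-/- and 12.25, 12.27, 12.34 and 11.997 in WT extracts. This is a rise of 0.53 (SE 0.15, adjusted p = 0.037) with no overlap, lost without any one extract other than Lck-/- replicate 1 (adjusted p up to 0.096).

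Creld2, a secreted ER stress protein, rose by 0.63 in sub-polysomal RNA (SE 0.15, adjusted p = 0.013), with 12.62 to 12.93 in Lck-/- and 11.77 to 12.27 in WT extracts. Its polysomal levels, 12.87 to 13.40 in Lck-/- and 12.33 to 12.98 in WT extracts, overlapped and were not called different. Pdia3 rose by 0.42 in sub-polysomal RNA (SE 0.13, adjusted p = 0.043), a call lost without any one of 6 extracts (all but Lck-/- replicate 1 and WT replicate 1, adjusted p up to 0.13). In polysomal RNA Pdia3 had 11.29 to 11.79 in Lck-/- and 11.32 to 11.78 in WT extracts. P4hb, the founding disulphide isomerase, went the other way in polysomal RNA, with 11.64, 11.56, 11.10 and 11.11 in Lck-/- and 12.12, 12.08, 12.06 and 11.74 in WT extracts. It fell by 0.65 (SE 0.18, adjusted p = 0.031) with no overlap; without Lck-/- replicate 3 or 4 or WT replicate 1, 2 or 3 the call was lost (adjusted p up to 0.096).

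The other 11 ER genes were not called in either fraction. They are the lectin chaperones Calr and Canx, the isomerases Pdia4 and Pdia6, the Hspa5 partners Hyou1, Dnajb9, Dnajc3 and Sdf2l1, the secreted factor Manf, and Xbp1 and Herpud1 of the unfolded protein response. Xbp1 differed by 0.05 in polysomal RNA (SE 0.20) and by -0.19 in sub-polysomal RNA (SE 0.18). Herpud1 differed by 0.37 (SE 0.26) in polysomal and 0.23 (SE 0.30) in sub-polysomal RNA.

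**Figure D5:**
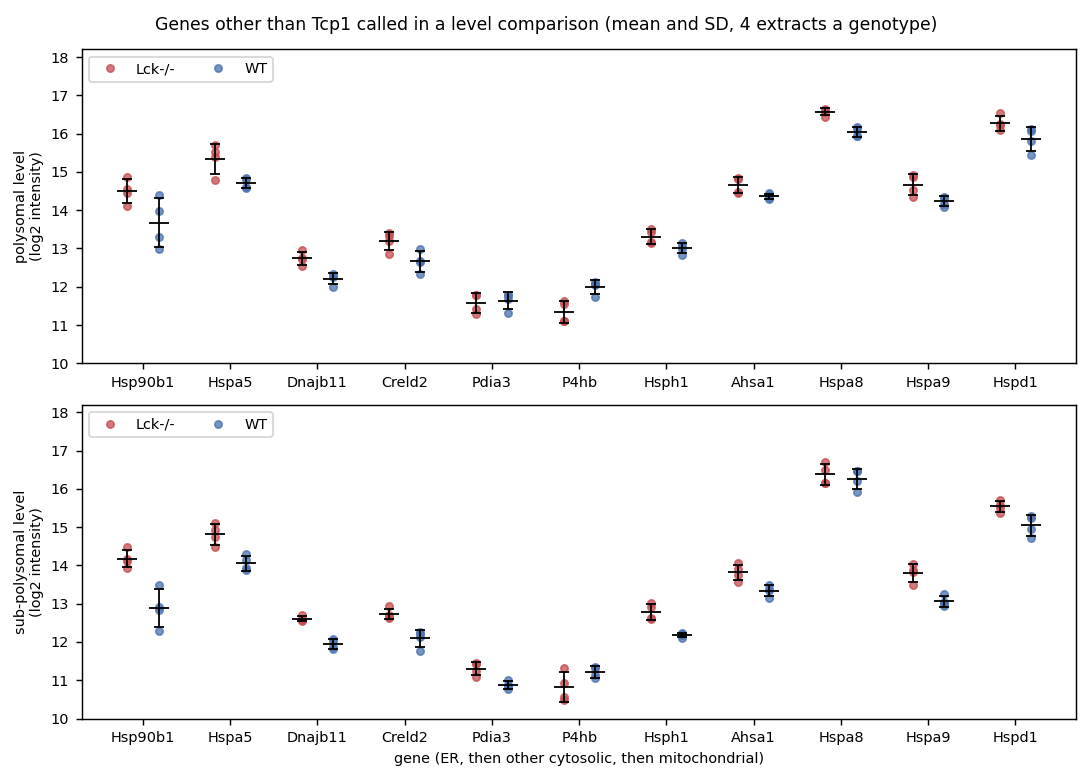
Polysomal (top) and sub-polysomal (bottom) log2 intensity in each extract of the 11 genes other than Tcp1 that were called in a level comparison, Lck-/- in red left of WT in blue, with black marks for mean and SD. In the lower panel the Lck-/- points lie above the WT points for all genes but P4hb and Hspa8.

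Markers of other cells in lymph node were measured beside these ER results. Of 5 plasma cell markers Irf4 and Prdm1 were detected in sub-polysomal RNA, and Irf4 alone in polysomal RNA. The summed sub-polysomal level of all 5, in log2, was 12.18 to 13.44 in Lck-/- and 12.82 to 13.27 in WT extracts. Irf4 was far the brightest probe in that sum, with sub-polysomal means of 12.74 in Lck-/- and 12.96 in WT cells. The sum therefore mostly followed Irf4 and is no separate measure of plasma cells. Jchain and Tnfrsf17 were above background on at most 1 array of 8 in a channel and genotype. Of 9 myeloid markers 5 were detected, with summed levels of 15.08 to 15.45 in Lck-/- and 15.39 to 15.98 in WT extracts in sub-polysomal RNA. In polysomal RNA the myeloid sum was 14.59 to 15.05 in Lck-/- and 13.73 to 14.44 in WT extracts. Siglech, far the brightest probe in that sum, rose there (0.69, adjusted p = 0.039), while the other 4 detected myeloid markers were not called, with differences of 0.45 for Csf1r, -0.05 for Tyrobp, -0.19 for Fcer1g and -0.70 for Itgam. Of 3 erythroid markers Hba-a1 alone was detected, and the erythroid polysomal sum did not overlap, at 8.57 to 10.30 in Lck-/- and 8.24 to 8.52 in WT extracts (Hba-a1 1.12, adjusted p = 0.080). The part of these cells in the results was not tested.

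Promoter sequence was searched for elements of the unfolded protein response. The ER members were chosen by name as folding genes, many of which this response raises. The share of them with an element therefore describes the list and is no result about these cells. The part of the elements in the level differences was not tested. The ER stress element bound by ATF6 with NF-Y, searched as CCAAT, any 9 bases and CCACG, was looked for on both strands of the RefSeq promoter windows of GRCm38.p6. It occurs in 7 of the 15 ER members with a promoter (46.7%), in none of the 17 CCT, other cytosolic and mitochondrial members with one, and in 0.137% of 27025 genes. Of the 5 ER genes that rose in sub-polysomal RNA, Hsp90b1, Hspa5 and Creld2 hold it and Dnajb11 and Pdia3 do not. Calr, Canx, Pdia6 and Dnajc3 hold it and were not called. Another unfolded protein response element, TGACGTGG, whose opposite strand starts with CCACG, was in none of the members and in 0.714% of genes.

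The matches are printed on the gene's own strand, fixed letters in capitals; a match that begins CGTGG is the same element on the opposite strand, and Hsp90b1 holds 2.
Hsp90b1 first: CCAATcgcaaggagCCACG
Hsp90b1 second: CGTGGtgaggcacgATTGG
Hspa5: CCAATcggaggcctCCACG
Creld2: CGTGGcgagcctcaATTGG
Calr: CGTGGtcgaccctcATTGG
Canx: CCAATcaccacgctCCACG
Pdia6: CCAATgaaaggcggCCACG
Dnajc3: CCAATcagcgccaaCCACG

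For the genes with the highest sub-polysomal rises the 250 bases before the start show where the elements sit, with each whole match in capitals. The Hspa5 stretch is chr2:34771840-34772089 on the plus strand and that of Hsp90b1 chr10:86705445-86705694 on the minus strand of GRCm38.p6. The element ends 46 bases before the start of Hspa5, and 193 and 88 bases before that of Hsp90b1.
Hspa5 promoter: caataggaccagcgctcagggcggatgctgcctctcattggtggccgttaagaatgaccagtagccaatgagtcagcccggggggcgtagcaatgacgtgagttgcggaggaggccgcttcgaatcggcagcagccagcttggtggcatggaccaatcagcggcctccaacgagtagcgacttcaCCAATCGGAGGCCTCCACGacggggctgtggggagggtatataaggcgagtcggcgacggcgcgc
Hsp90b1 promoter: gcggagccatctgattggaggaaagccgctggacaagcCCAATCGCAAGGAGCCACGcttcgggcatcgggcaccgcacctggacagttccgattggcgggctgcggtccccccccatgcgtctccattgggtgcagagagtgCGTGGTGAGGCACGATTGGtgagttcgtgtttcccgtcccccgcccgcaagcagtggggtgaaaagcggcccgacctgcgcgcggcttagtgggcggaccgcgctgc

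A wider list of 110 related genes, of which 109 were on the array, set these results among other co-chaperones, heat shock factors and ER quality control genes. In sub-polysomal RNA 14 of 98 tested rose (background: 9.49%) and 5 fell (background: 10.8%). In polysomal RNA 6 of 104 rose (background: 5.96%) and 7 fell (background: 9.25%), shares near or below those of all genes. In the ratio 2 of 88 fell (background: 1.05%), Dnajc9 (-0.52, SE 0.11, adjusted p = 0.025) and Spcs1 (-0.64, SE 0.14, adjusted p = 0.030), a subunit of the signal peptidase. The median differences over the related genes tested were 0.14 in sub-polysomal RNA, 0.00 in polysomal RNA and -0.10 in the ratio. The related genes named here and below are given as labelled. With crossed dye swaps 0 related genes were called in the ratio, 5 in polysomal and 11 in sub-polysomal RNA. Over all genes 41, 696 and 1110 were then called. Without WT replicates 1 and 2 there were 0, 3 and 11 related genes, and 86, 238 and 1105 of all genes.

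Dnajc7, a J-domain protein that binds Hsp70 and Hsp90, rose in polysomal (0.88, SE 0.16, adjusted p = 0.0064) and sub-polysomal RNA (0.65, SE 0.16, adjusted p = 0.019). Bag2, a nucleotide exchange factor of Hsp70, fell by 1.04 in polysomal (SE 0.19, adjusted p = 0.0061) and by 0.86 in sub-polysomal RNA (SE 0.25, adjusted p = 0.034).

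Of the mitochondrial genes, Dnajc19, a J-domain protein of the protein import motor, rose by 1.38 in polysomal RNA (SE 0.38, adjusted p = 0.032), and Grpel1, the nucleotide exchange factor of Hspa9, fell by 1.17 (SE 0.31, adjusted p = 0.029). Hscb, which serves iron-sulphur cluster assembly, fell by 0.90 in sub-polysomal RNA (SE 0.16, adjusted p = 0.0046).

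Among related ER genes Dnajc1 rose by 0.83 in sub-polysomal RNA (SE 0.15, adjusted p = 0.0048) and Selenok fell by 0.80 (SE 0.17, adjusted p = 0.010). Ssr2, a subunit of the translocon-associated complex, and Ero1a, the oxidase that recharges disulphide isomerases, fell by 1.08 (SE 0.24, adjusted p = 0.014) and 0.77 (SE 0.22, adjusted p = 0.038) in polysomal RNA. Of 49 related ER genes tested in sub-polysomal RNA 5 rose (background: 9.49%) and 3 fell (background: 10.8%), shares near or below those of all genes.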

How the data were processed

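RNA of both gradient fractions was measured on 16 two-colour arrays, 2 for each of 8 extracts. Per the file headers, the authors' scanner files, made with Agilent Feature Extraction 10.7.3.1 and probes placed on mm9, hold spot and background intensity, processed intensity, and yes-or-no flags, deposited with no scale (other). The authors' deposited table holds normalised log2 ratios in 8 columns, matched to genotype only; the submitters' processing notes name limma without a version.

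Here, in R 4.3.3 with limma 3.58.1, intensity was corrected with normexp (offset 50), normalised with loess (controls and outliers at weight 0) and, for levels, Aquantile; dye swaps were averaged. Of 22328 genes, those well above background on at least 6 of 8 arrays of a genotype (both genotypes and channels for the ratio) were fitted together (8266 for the ratio, 10294 polysomal, 9704 sub-polysomal), with p adjusted by Benjamini-Hochberg over all of them and a threshold of 0.05. Arrays give no read depth; their number limits precision. SE is the moderated standard error, SD the spread of 4 extracts. The fit was tested on simulated data.

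The members and lists were chosen with earlier results of these data known. Genes with values in every extract follow a rule: per class and comparison up to 3 called genes with the largest difference, or else the smallest p; Hsp90aa1, Hyou1 and other members are named to account for all 40, and related genes as up to 2 called per class. Replicate numbers did not pair the genotypes, since same-numbered deviations correlated at -0.24 to 0.26 in the ratio, -0.13 to 0.47 in polysomal level (0.47 for replicate 3) and -0.29 to 0.28 in sub-polysomal level. Promoters come from RefSeq on GRCm38.p6; those of Cct4, Hsp90aa1, Hsp90ab1, Hspa8, Dnajc2, Hspa9, Hyou1 and Manf were not used here.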

Additional observations from a re-analysis of the deposited data

Results flagged for a closer look

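Of 62 groups of 4 extracts tested for a value far from the others, 4 had one, and chance flags about 1 in 20 such groups. Dnajc3 had a ratio of 0.2527 in Lck-/- replicate 1, against 1.10 to 1.17 in the other 3 Lck-/- extracts. Hsph1 had a ratio of 0.6058 in WT replicate 4, against 0.88 to 0.93 in the other WT extracts. Ahsa1 had a ratio of 1.2423 in WT replicate 3, against 0.95 to 0.96 in the other WT extracts. P4hb had a polysomal level of 11.7383 in WT replicate 4, against 12.06 to 12.12 in the other WT extracts, and its polysomal fall stayed called without that extract.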

How the results depend on the processing

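Counts of folding genes called are given with all directions together. For the ratio, 0 genes became 8 without loess on centred extracts, 37 with no normalization, 1 with probes averaged, 39 with the authors' ratios and 7 with those centred, all lower in Lck-/- but the 1 from averaged probes. Of all 8266 genes 980, 5980, 312, 7451 and 717 were called in these settings, in the same order, against 319 in the main fit. The median of all genes moved to -0.78 with no normalization and -1.15 in the authors' table. The 5 polysomal calls became 2 with processed signals, 3 without loess on centred extracts, 0 with polysomal RNA in Cy5 only, 0 in Cy3 only, 0 on slide 1 alone, 3 on slide 2 alone, 2 with quantile scaling, 1 with crossed dye swaps and 1 without WT replicates 1 and 2. The 10 sub-polysomal calls became 3 with Cy5 only, 1 with Cy3 only, 0 on slide 2 alone, 5 with crossed dye swaps and 6 without WT replicates 1 and 2. Slide 1 alone gave 12 and quantile scaling 15. Over all genes the polysomal calls in these settings ran from 140 (Cy5 only) to 2100 (slide 2 alone), against 1566. The sub-polysomal ones ran from 276 (slide 2 alone) to 2450 (slide 1 alone), against 1966. Leaving out an extract gave 0 for the ratio, 1 to 9 polysomal calls (9 without Lck-/- replicate 1; 1 without Lck-/- replicate 3 or 4 or WT replicate 1 or 3; 2 without WT replicate 2 or 4), 7 to 10 sub-polysomal calls, 26 to 34 ratios off 0 in Lck-/- and 32 to 35 in WT cells. The 34 ratios called off 0 in Lck-/- cells became 21 with Cy5 only and 22 with Cy3 only. The ratio difference of Cct6a, not called, reversed to -0.61 with no normalization, -0.036 on slide 2 alone and -0.96 in the authors' ratios. Single-dye and single-slide settings use 8 arrays. The cause of the changes was not tested in any setting. Replicate numbers share no stated source, and with them as a replicate block 3 polysomal and 6 sub-polysomal genes were called and none in the ratio. Of 998 comparisons of named genes with another setting, 866 kept direction and side of the threshold, 117 lost the call, 12 gained one and 3 reversed. This total pools level calls with ratios against 0 and with genes not called in the main fit. Of 23 other settings, the polysomal calls held in 5 for Hspa5, 6 for Dnajb11, 7 for Hspa8, 13 for P4hb and 20 for Tcp1. The sub-polysomal calls held in 9 for Ahsa1, 10 each for Hspd1 and Pdia3, 15 for Tcp1 and 18 for Dnajb11. They held in 19 each for Creld2 and Hsph1, 20 for Hspa9, 21 for Hspa5 and 22 for Hsp90b1.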
